A study of Rattus norvegicus with 8 samples.

Results

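The circadian clock genes Clock, Per1, Per2, Per3, Cry1, Cry2, Nr1d1, Nr1d2, Dbp and Tef were examined in kidney cortex of male and female rats. They were found by the RefSeq accession of each array probe, and all 10 had a probe, among 14737 genes with a named probe on the array. Together they had 15 probes, of which 14 were well above background on all 8 arrays and were tested. The remaining probe, 1 of 3 for Per3, was well above background in more than 50% of its 2 spots on no array and was not tested. Where a gene had several probes, the brightest over the 8 arrays leads the description.

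The groups were 4 adult male and 4 adult female RCCHanTMWIST (Han Wistar) rats. None had been treated, and all were housed in a 12 h day/night cycle with chow and water always available. Each rat gave 1 sample of cortical kidney tissue, cut as slices after removal of the capsule, and 1 one-colour array. The rats were killed by cervical dislocation under CO2, and the hour of killing and the age in weeks are not given in the sources used here. Since transcripts of the clock cycle over the day, sex and hour of sampling cannot be told apart where the hours differed between the sexes.

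The clock of mammalian cells is a set of interlocked feedback loops. The transcription factors CLOCK and BMAL1 bind E-box sequences as a pair and activate the Per and Cry genes, whose proteins return to the nucleus and inhibit the pair. The same pair activates Nr1d1 and Nr1d2, which encode the nuclear receptors REV-ERB alpha and REV-ERB beta, repressors of Bmal1. It also drives Dbp and Tef, PAR bZip transcription factors that act on D-box sequences. In kidney, this clock is known to give a daily course to sodium, water and drug transport.

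The sequences that these factors bind were looked for in the RefSeq promoters of the members, to show where the loops could meet the genes measured here. Each promoter held 250 bases before and 50 bases after the start of the gene in the GRCr8 build, and 9 members matched 11 of them. Cry1 matched 0 of them, so no promoter of Cry1 was searched. Letters were searched on both strands. Of 33469 rat promoters of the same length, the E-box CACGTG was present in 6.42%, the related E'-box CACGTT in 4.83%, a D-box (TTATGTAA or TTACGTAA) in 1.01% and the REV-ERB and ROR half-site AGGTCA in 16.2%. The E-box stood in promoters of 2 members, Tef and Nr1d1. The E'-box stood in 3, Per2, Cry2 and Nr1d1. The D-box stood in 1, Per2, and the half-site in 1, Nr1d2. A missing match says no more than that these letters are not in this window. The stretches below are from RefSeq (GRCr8), run 5′ to 3′ on the strand of the gene, and carry the matched letters in capitals.
Per2, chr9:99497010-99497225, minus strand, D-box then E'-box: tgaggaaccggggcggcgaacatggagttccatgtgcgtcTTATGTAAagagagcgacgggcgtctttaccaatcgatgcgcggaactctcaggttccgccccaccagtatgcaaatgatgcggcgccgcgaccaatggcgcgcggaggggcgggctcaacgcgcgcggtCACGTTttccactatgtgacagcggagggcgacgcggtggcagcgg
Cry2, chr3:98860604-98860687, minus strand, E'-box read on the opposite strand: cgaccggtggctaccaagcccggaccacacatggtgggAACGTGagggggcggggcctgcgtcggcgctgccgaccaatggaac
Nr1d1 (first start), chr10:84231941-84232026, minus strand, E'-box read on the opposite strand: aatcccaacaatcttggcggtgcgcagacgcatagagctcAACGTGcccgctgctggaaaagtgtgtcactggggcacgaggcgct
Nr1d1 (other start), chr10:84229600-84229685, minus strand, E-box: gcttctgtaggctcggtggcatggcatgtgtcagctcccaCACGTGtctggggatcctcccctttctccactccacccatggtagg
Nr1d2, chr15:9954807-9954892, plus strand, REV-ERB and ROR half-site: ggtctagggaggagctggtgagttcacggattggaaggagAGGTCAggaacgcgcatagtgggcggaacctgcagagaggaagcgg
Tef, chr7:115206589-115206674, plus strand, E-box: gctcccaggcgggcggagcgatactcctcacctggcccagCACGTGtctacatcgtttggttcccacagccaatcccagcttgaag
The Per2 stretch is the one among the members in which 2 of the searched motifs were found, the D-box starting 192 bases and the E'-box 62 bases before the start of the gene.

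Levels are given as the log2 signal of a probe relative to the 75th percentile of the array, and a difference is the male mean minus the female mean on this log2 scale. Between 73.8% and 79.1% of the probes were well above background on an array, and 0 spots were saturated. The 8 arrays lay on a single slide, and each of its 2 rows held 2 males and 2 females. The defining genes of proximal tubule (Slc34a1, Lrp2, Slc5a2 and Aqp1, 4 of 4) were well above background on all 8 arrays. So were Umod of the thick ascending limb, Aqp2 and Atp6v1g3 of the collecting duct and 3 podocyte genes, so the slices held several cell types, and in such tissue fewer cells of a type and less RNA per cell cannot be told apart. Of 2 markers of the distal convoluted tubule, Slc12a3 was well above background on 8 arrays and Pvalb on 0. Of 3 adipocyte markers, 2 had a probe, and Adipoq was well above background on 8 arrays and Lep on 5. Of 2 blood markers, 1 had a probe, Alas2, which was so on 8 arrays. Of 2 liver markers, Alb was well above background on 7 arrays and Apoa1 on 0. Of 3 adrenal markers, Cyp17a1 was so on 8 arrays, Cyp11b2 on 2 and Cyp11b1 on 0.

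No clock gene passed the limma test for a sex difference after adjustment for multiple testing. At an adjusted p below 0.05, 0 of 10 lead probes passed in either direction, against 8.06% of the 23425 probes tested, 3.39% higher in males and 4.67% higher in females. With a 2-fold difference asked for as well, 0 of 10 passed against 1.89%. At an unadjusted p below 0.05, 3 of 10 passed (Per2, Nr1d2 and Tef), against 25.6% of all probes tested. All 3 were higher in males, a direction in which 9.73% of all probes passed at this unadjusted level. The values of the sexes did not overlap in 1 of 10 genes, Per2, against 18.5% of all probes tested. The median difference of the 10 genes was 0.17, and that of all probes tested was -0.04. Their median absolute difference was 0.212, against 0.154 for all probes.

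**Figure D1:**
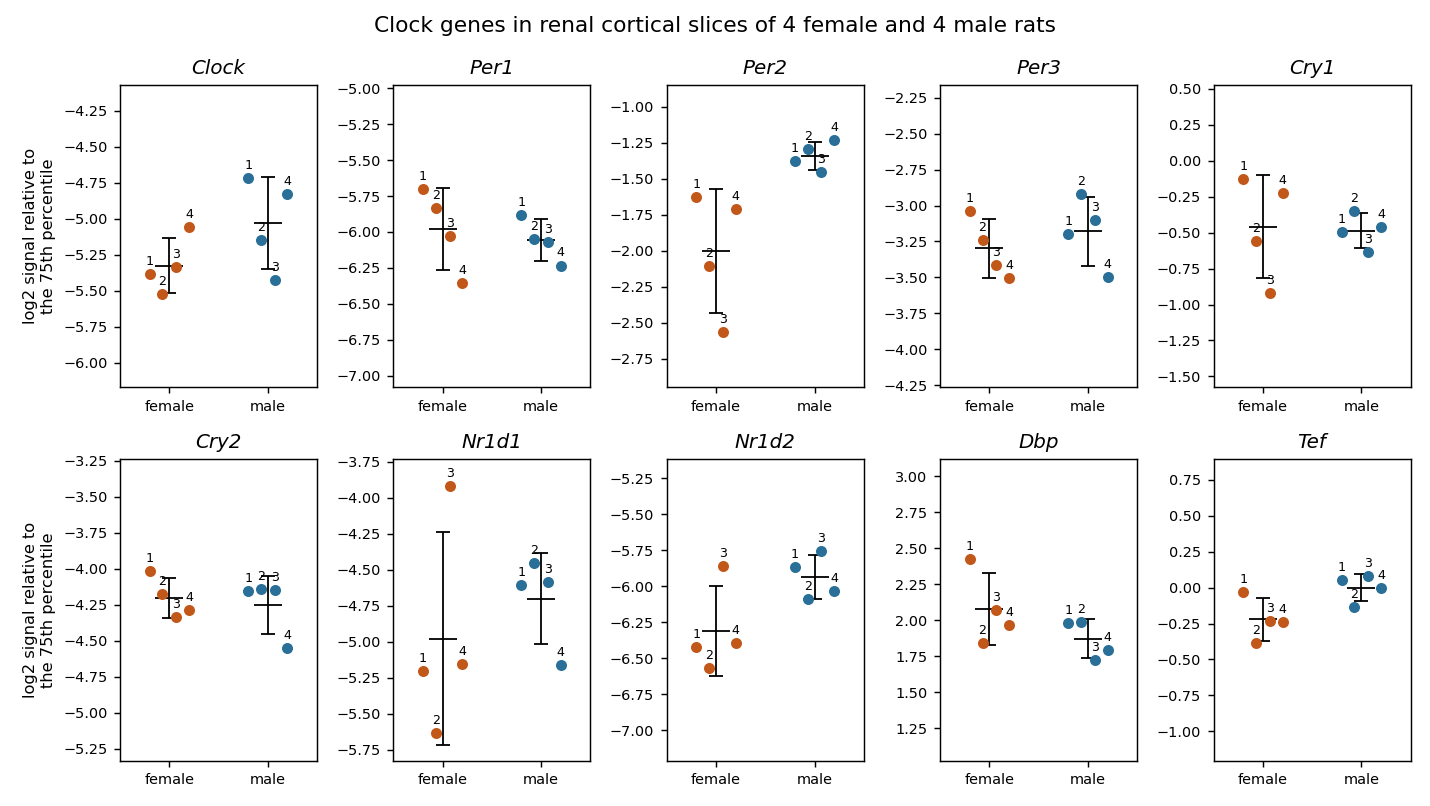
Log2 signal relative to the 75th percentile of the array for the lead probe of each of the 10 clock genes, by sex, with 1 numbered point per rat and the mean ± SD of 4 rats. The panels span the same height on the log2 axis but start at different levels; the 4 males lie above the 4 females in the Per2 panel alone, and female 3 stands highest in the Nr1d1 panel.

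Clock encodes the activator that pairs with BMAL1. Its level was -5.39, -5.52, -5.33 and -5.06 in females 1 to 4 and -4.72, -5.15, -5.43 and -4.82 in males 1 to 4. Males 1 and 4 stood above all females, whereas male 3 lay among them. The difference was 0.30 (SE 0.168, 95% interval -0.090 to 0.681), with a limma adjusted p of 0.311. The other Clock probe gave a difference of 0.22 (SE 0.185) with a limma adjusted p of 0.513.

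Among the Per genes, which encode the inhibitors that pair with CRY, Per2 had the largest difference between the sexes. The level of Per2 was -1.62, -2.11, -2.56 and -1.71 in females 1 to 4 and -1.38, -1.30, -1.45 and -1.23 in males 1 to 4. Every male stood above every female, with female 3 lowest and the males close together. The male mean was -1.34 ± 0.097 (SD, n = 4). The female mean was -2.001 ± 0.43 (SD, n = 4). The difference of 0.66 (SE 0.195, 95% interval 0.215 to 1.108) was 1.58-fold. Per2 had a limma p of 0.0089, an adjusted p of 0.0771 over all probes tested and a two-sided exact permutation p of 0.0286, the smallest that 4 against 4 rats can give. The difference thus did not pass the adjusted threshold. In 19 alternatives of the processing, it ranged from 0.47 without female 3 to 0.79 without female 1, and the adjusted p ranged from 0.0507 to 0.169. Within the first slide row the Per2 difference was 0.83, and within the second it was 0.49. The Per2 probe was printed in 10 spots, whose SD within an array was 0.053, so the spread of 0.43 between females was larger than the spread between spots.

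The Per2 difference stood beside differences in markers of other segments. Podocyte markers (3 of 3 well above background) summed to 9.91 to 10.4 times the 75th percentile in males and 11.5 to 12.2 times in females. The thick ascending limb marker Umod, 1 of 2 with a probe, was at 46.0 to 53.7 times in males and 55.7 to 63.7 times in females. The sums of the 4 proximal tubule markers overlapped, at 111 to 120 times in males and 117 to 127 times in females, although the values of 1 of them, Slc5a2, did not (difference -0.13, limma adjusted p of 0.225). Those of the 2 collecting duct markers also overlapped, at 25.6 to 37.6 times in males and 34.8 to 49.1 times in females. The part of these cells in the Per2 difference was not tested.

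Per1 was at a level of -5.70, -5.83, -6.03 and -6.36 in females 1 to 4 and of -5.88, -6.05, -6.07 and -6.23 in males 1 to 4. The males lay inside the range of the females. Its difference was -0.08 (SE 0.146, 95% interval -0.414 to 0.256, limma adjusted p of 0.779). Per3 was at -3.04, -3.24, -3.41 and -3.50 in females 1 to 4 and at -3.20, -2.92, -3.10 and -3.50 in males 1 to 4. The sexes overlapped, with a difference of 0.12 (SE 0.145, 95% interval -0.215 to 0.450, limma adjusted p of 0.66). The other tested Per3 probe gave 0.09 (SE 0.113).

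The cryptochromes Cry1 and Cry2, the other component of the inhibitory complex, had differences near 0. Cry1 was at a level of -0.13, -0.56, -0.92 and -0.23 in females 1 to 4 and of -0.49, -0.35, -0.64 and -0.46 in males 1 to 4. All males lay between the lowest and the highest female. The Cry1 difference was -0.03 (SE 0.170, 95% interval -0.416 to 0.361, limma adjusted p of 0.94). Cry2 was at -4.02, -4.17, -4.34 and -4.29 in females 1 to 4 and at -4.15, -4.14, -4.15 and -4.55 in males 1 to 4. Male 4 was the lowest of the 8 rats, and the other 3 males were at -4.155 to -4.141. The Cry2 difference was -0.05 (SE 0.118, 95% interval -0.316 to 0.225, limma adjusted p of 0.85). The sign of the Per1 and Cry2 differences turned to 0.02 and 0.01 under quantile normalization, and that of Cry1 turned to 0.08 without female 1.

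The REV-ERB receptors of the repressing arm varied among the females. Nr1d1 was at a level of -5.21, -5.64, -3.92 and -5.16 in females 1 to 4 and of -4.61, -4.45, -4.58 and -5.16 in males 1 to 4. Female 3 was the highest of all rats and female 2 the lowest, a 3.29-fold range within the females. The highest male was 1.64-fold above the lowest. The Nr1d1 difference was 0.28 (SE 0.346) with a 95% interval from -0.513 to 1.071 and a limma adjusted p of 0.661. This was the widest interval among the 10 genes. A 2-fold higher mean in males lay inside it, as it did inside the interval of Per2. The Nr1d1 difference was 0.06 without female 2, 0.63 without female 3 and 0.43 without male 4, and within the slide rows it was -0.35 and 0.91.

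Nr1d2 was at a level of -6.43, -6.57, -5.86 and -6.40 in females 1 to 4 and of -5.87, -6.09, -5.76 and -6.03 in males 1 to 4. Males stood above females 1, 2 and 4, and female 3 lay among the males. The difference was 0.38 (SE 0.157, 95% interval 0.019 to 0.736), with a limma p of 0.0412 and an adjusted p of 0.176. Without female 3, the Nr1d2 difference was 0.53 with a limma adjusted p of 0.0354, the one call among the members in the 19 alternatives. Within the slide rows it was 0.18 and 0.58. The SD between the 2 spots of this probe was 0.161, the highest of the 10 lead probes.

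Dbp and Tef represent the PAR bZip output arm. Dbp was at a level of 2.42, 1.84, 2.07 and 1.97 in females 1 to 4 and of 1.98, 1.99, 1.72 and 1.79 in males 1 to 4. Female 1 was the highest and male 3 the lowest. The difference was -0.21 (SE 0.132, 95% interval -0.508 to 0.098, limma adjusted p of 0.375). The other Dbp probes gave -0.15 (SE 0.115) and -0.21 (SE 0.0973), and female 1 was the highest rat on each of the 3 probes. Without female 1, the Dbp difference was -0.09. Tef was at a level of -0.03, -0.39, -0.23 and -0.24 in females 1 to 4 and of 0.05, -0.13, 0.08 and -0.004 in males 1 to 4. Males 1, 3 and 4 lay above all females, and male 2 lay below female 1. The Tef difference was 0.22 (SE 0.0919, 95% interval 0.009 to 0.430), with a limma p of 0.0429, an adjusted p of 0.179 and an exact permutation p of 0.0571.

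**Figure D2:**
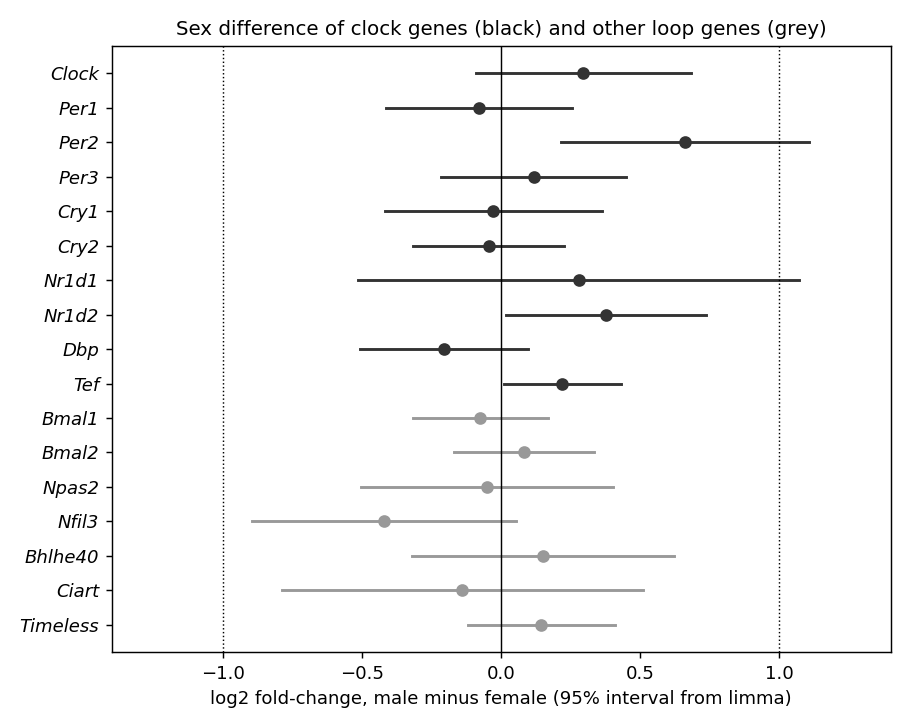
Difference between the sexes (male mean minus female mean, log2 scale) with its 95% interval from limma for the 10 clock genes in black and for 7 other genes of the loops in grey; dotted lines mark 2-fold. The intervals of Per2, Nr1d2 and Tef lie above 0 before adjustment, and those of the 7 grey genes span 0.

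The spread between rats of a sex was above the median of all probes tested in 9 of 10 clock genes. The pooled SD within sex had a median of 0.235 over the 10 genes and of 0.162 over all probes tested. Nr1d1 had the widest spread, 0.568, at the 95.5th percentile of all probes, and Tef the narrowest, 0.124. The SD between spots of a lead probe on the same array was 0.0363 to 0.161, below the pooled SD between rats in each of the 10. The spread was wider in females for 7 of 10 genes (70%), with a median SD of 0.267 in females and 0.148 in males. Of all probes tested, 48.3% had the wider spread in females, with medians of 0.149 and 0.152. Whether the spread of a member differed between the sexes was not tested.

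Individual rats stood out across several members. Female 1 had the highest level among females in 7 genes, Per1, Per2, Per3, Cry1, Cry2, Dbp and Tef. By the lead probes, female 2 was the lowest female for 5 genes, Clock, Nr1d1, Nr1d2, Dbp and Tef. On the other Clock probe, however, female 2 was the highest female, at -6.624, and female 1 the lowest, at -7.308. Female 3 combined the highest female levels of Nr1d1 and Nr1d2 with the lowest of Per2, Cry1 and Cry2. In males, male 2 was highest for 5 genes, and male 4 was lowest for Per1, Per3, Cry2 and Nr1d1. The median absolute deviation from the mean of the sex over all probes tested was 0.0891 to 0.113 on every array, so no array stood apart by this measure. The corresponding median over the 10 members was 0.243, 0.156, 0.124 and 0.191 in females 1 to 4. In males 1 to 4 it was 0.0809, 0.125, 0.116 and 0.142. How often each rat was the highest or lowest of its sex over all probes was not counted.

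**Figure D3:**
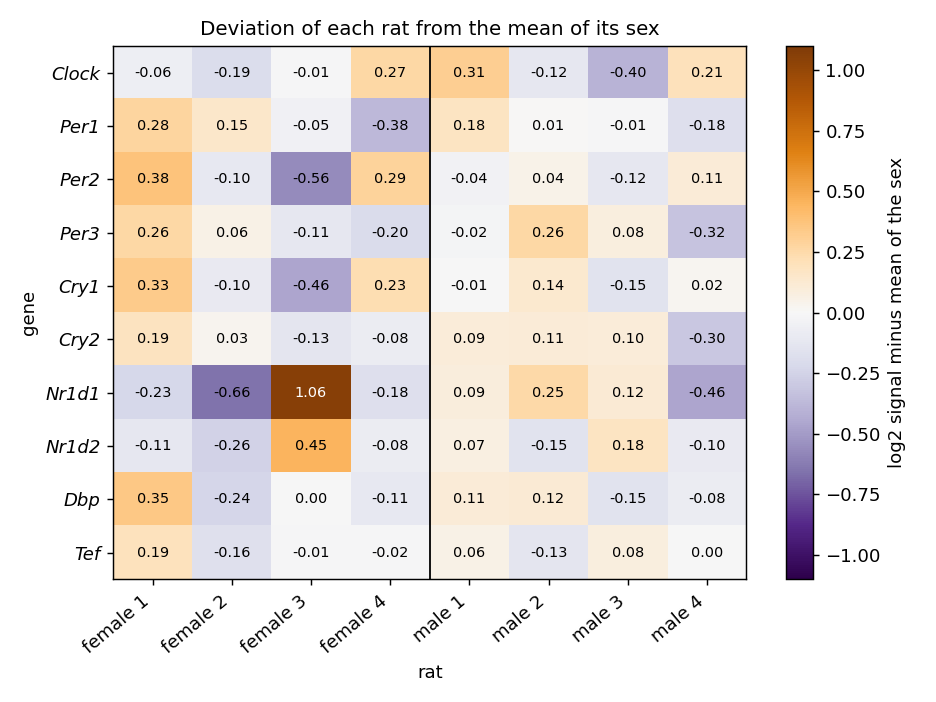
Deviation of each rat (columns) from the mean of its sex for the 10 clock genes (rows), as a difference in log2 signal; orange is above and purple below the mean. Female 3 is 1.06 above the female mean for Nr1d1 and stands at -0.56 for Per2, and female 1 is above the mean in 7 rows.

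Covariation over the 8 rats was examined for the 45 pairs of members after the mean of each sex had been subtracted, with an exact permutation test over all rearrangements within the sexes. The points of each pair share an array and its scaling. The correlation was positive in 29 pairs and negative in 16, and it had the same sign within both sexes in 22. At an unadjusted p below 0.05, 4 pairs passed by the exact permutation test, and 0 passed after adjustment over the 45 pairs, where the smallest adjusted p was 0.234. With 4 rats per sex, this permutation p cannot fall below 0.00174.

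Per2 and Cry1, encoding partners of the inhibitory complex, gave the strongest correlation of the 45. Pearson's r was 0.978 (exact permutation p of 0.00521, adjusted p of 0.234) and Spearman's rho was 0.976 (exact permutation p of 0.00694, adjusted p of 0.156). Females 1 and 4 were high and female 3 low for both genes. Without females 1 and 3, the rats farthest from the median of Per2, r was 0.906. Within females r was 0.999 and within males 0.762, each over 4 rats, and it was 0.978 with the slide row removed. The differences between the sexes, which the correlation leaves out, were 0.66 for Per2 and -0.03 for Cry1.

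Per3 and Cry2 formed the next pair, with r of 0.910 (exact permutation p of 0.0122, adjusted p of 0.273) and rho of 0.952 (exact permutation p of 0.00521, adjusted p of 0.156). Both were high in female 1 and low in male 4. The correlation was 0.799 without these rats, 0.947 within females and 0.895 within males, and it was 0.833 with the slide row removed. Per1 and Per3 gave r of 0.717 (exact permutation p of 0.0451, adjusted p of 0.453) and rho of 0.762 (exact permutation p of 0.066, adjusted p of 0.742), with r of 0.544 without females 1 and 4.

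Nr1d1 and Nr1d2 gave r of 0.867 (exact permutation p of 0.0469, adjusted p of 0.453) and rho of 0.619 (exact permutation p of 0.141, adjusted p of 0.839). Female 3 was high and female 2 low for both, and without them r was 0.357, so the relation rested on these rats. Within females, which include both of these rats, r was 0.999, and within males it was 0.236, each over 4 rats. Nr1d2 was negatively correlated with Cry1 and with Per2, with r of -0.743 (exact permutation p of 0.108, adjusted p of 0.807) and -0.731 (exact permutation p of 0.149, adjusted p of 0.93). Their rho was -0.524 (exact permutation p of 0.286, adjusted p of 0.839) and -0.476 (exact permutation p of 0.34, adjusted p of 0.839). Without females 1 and 3 these r were -0.332 and -0.223. Within females they were -0.719 and -0.733, and within males -0.938 and -0.911, each over 4 rats.

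**Figure D4:**
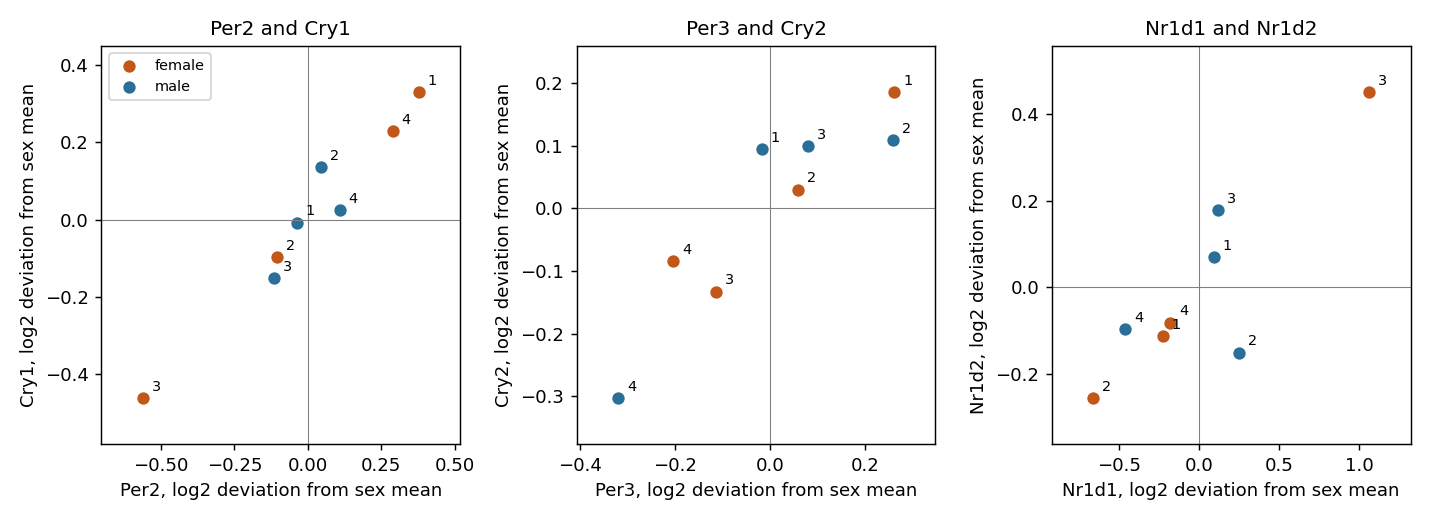
Deviation from the mean of the sex, as a difference in log2 signal, for Per2 against Cry1, Per3 against Cry2 and Nr1d1 against Nr1d2, with 1 numbered point per rat. The points of Per2 and Cry1 follow a line in both sexes (r of 0.978), whereas the relation of Nr1d1 and Nr1d2 rests on females 2 and 3.

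Of 12 other genes of the loops, 7 had a probe, all were tested, and 0 were called by limma at the adjusted p or had an unadjusted p below 0.05. Bmal1, the partner of CLOCK, was at a level of 0.40, 0.57, 0.26 and 0.52 in females 1 to 4 and of 0.24, 0.57, 0.23 and 0.42 in males 1 to 4, which overlapped, with a difference of -0.08 (SE 0.106, adjusted p of 0.704). Npas2, which can replace CLOCK, differed by -0.05 (SE 0.198, adjusted p of 0.904), and Bmal2 by 0.08 (SE 0.109, adjusted p of 0.683). Nfil3, a repressor at D-boxes, had the largest difference of the 7, -0.42 (SE 0.207, 95% interval -0.896 to 0.052, adjusted p of 0.244). Bhlhe40, a repressor at E-boxes, differed by 0.15 (SE 0.206), Ciart, a repressor of the CLOCK and BMAL1 pair, by -0.14 (SE 0.284) and Timeless by 0.15 (SE 0.116). The other 5 had no named probe here.

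The members were also set against these 7 genes over the 8 rats, 70 pairs in a family added after the data had been seen. By the exact permutation test 6 pairs had p below 0.05, and 0 passed after adjustment, where the smallest adjusted p was 0.365. The 6 pairs were Nr1d2 and Bmal1, Per2 and Nfil3 (r of 0.499), Per2 and Ciart (0.766), Per3 and Bmal2 (0.815), Tef and Timeless (0.762) and Clock and Bhlhe40 (0.75). Nr1d2 and Bmal1, repressor and repressed gene, gave r of -0.849 (exact permutation p of 0.00521, adjusted p of 0.365) and rho of -0.881 (exact permutation p of 0.0139, adjusted p of 0.535). This r was -0.916 within females, -0.939 within males and -0.789 without female 3 and male 3. Nr1d1 and Bmal1 gave r of -0.562 (exact permutation p of 0.146, adjusted p of 0.567) and rho of -0.429 (exact permutation p of 0.342, adjusted p of 0.895), with r of -0.04 without females 2 and 3. For Clock and Bmal1, the paired activators, r was 0.003 (exact permutation p of 0.997, adjusted p of 0.997) and rho was -0.119 (exact permutation p of 0.819, adjusted p of 0.979). The Clock correlations, that with Bhlhe40 among them, used the lead Clock probe alone. The other Clock probe ranked the females differently, with female 2 highest and female 1 lowest.

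Among 13 kinases, ubiquitin ligases and related regulators of clock proteins, 10 were tested, and 1 was higher in males and 0 higher in females at the adjusted p, against 3.39% and 4.67% of all probes tested. This was Prkaa2, a catalytic subunit of the AMP-activated kinase, which marks CRY proteins for degradation. Its level was -0.72, -0.65, -0.52 and -0.46 in females 1 to 4 and -0.01, -0.05, -0.03 and 0.03 in males 1 to 4. The sexes did not overlap, and the difference was 0.57 (SE 0.0758, 1.49-fold, limma adjusted p of 0.00431). It ranged from 0.53 to 0.62 in the 19 alternatives and remained called in each of them. Within the slide rows, with 2 rats per sex in each, it was 0.50 and 0.65 with limma adjusted p of 0.185 and 0.0988.

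Of 16 genes known to follow the clock in kidney or liver, 16 were tested, 1 was higher in males, 1 was higher in females, and 14 did not pass, where 8.06% of all probes passed in either direction. Por, the reductase that supplies electrons to cytochromes P450, was higher in males, with a difference of 0.33 (SE 0.0717, limma adjusted p of 0.0302). Noct, nocturnin, was at a level of -1.20, -1.03, -1.81 and -1.93 in females 1 to 4 and of -2.24, -2.43, -2.28 and -2.25 in males 1 to 4. It was higher in all females than in any male, by 1.75-fold (difference -0.81, SE 0.200, limma adjusted p of 0.0461). Within the slide rows, the Noct difference was -0.37 and -1.24 and that of Por 0.28 and 0.38. The call was lost in 10 of 19 alternatives for Por and in 12 of 19 for Noct.

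Glucocorticoids also drive several clock genes, Per1 among them. Of 8 glucocorticoid response genes, 7 were tested, and 0 were called by limma at the adjusted p, against 8.06% of all probes. At an unadjusted p below 0.05, 3 passed, against 25.6% of all probes. These were Pck1, Tsc22d3 and Hsd11b2, the last named after its values were seen. The gluconeogenic enzyme gene Pck1 had a difference of 0.52 (SE 0.133, adjusted p of 0.0511), Tsc22d3, encoding the mediator GILZ, one of -0.41 (SE 0.133, adjusted p of 0.102) and Hsd11b2, whose enzyme inactivates corticosterone, one of -0.24 (SE 0.0627, adjusted p of 0.0551). The phosphatase gene Dusp1, with an unadjusted p of 0.158, had a difference of -0.25 (SE 0.160, adjusted p of 0.375). Per1 itself had a difference of -0.08. The part of glucocorticoids in the differences of the clock genes was not tested.

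Dbp, the transcription factor of the D-box output arm, was also set against 2062 other named genes with a lead probe well above background on all 8 arrays and a pooled SD of at least 0.25. The correlations over the 8 rats, after subtraction of the sex means, are given as a description. Pnma2 was most like Dbp (r of 0.993), followed by the growth factor gene Areg (0.929), the adenylyl cyclase gene Adcy6 (0.929), the smooth muscle actin gene Actg2 (0.920) and the olfactory receptor gene Or5ap2 (0.910). Among the lowest r with Dbp were those of Nuak2 (-0.957), Ccn2 (-0.940), Vom1r82 (-0.879) and Ccn1 (-0.875). Female 1, the rat highest for Dbp, was also highest for Pnma2, Areg, Adcy6 and Actg2 and lowest for Nuak2 and Ccn2. Without females 1 and 2, r ranged from 0.702 (Areg) to 0.979 (Pnma2) in the first 5 genes and from -0.848 (Ccn2) to -0.794 (Ccn1) in the other 4 named. In all, 10 of the 2062 genes had an absolute r of at least 0.9.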

How the data were processed

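RNA of 8 rats, 4 male and 4 female, was measured on one-colour Agilent arrays. The authors deposited the signal intensity of every spot, background-subtracted by Feature Extraction 10.7.3.1 and not normalized between arrays, and a table of log2 values, used here as an alternative. The submitters' processing notes name limma 3.8.2. Here, without the outlier spots, log2 signals were set relative to the 75th percentile of non-control spots of their array, and spots of a probe were averaged. The 23425 of 30367 probes that exceeded background well on 4 or more arrays were fitted as male minus female in limma 3.58.1 under R 4.3.3, with Benjamini-Hochberg adjustment over all of them. The script was tested on simulated data. Gene names came from RefSeq accessions, which named 17514 probes. The named genes were the 10 members, every measured gene of the other loops, those of the other lists called at the adjusted p or else up to 3 per list by size, and the 5 most and 5 least like Dbp, of which 1 is not reported here. The members and lists were chosen with earlier results of these data known. Samples of a sex were separate rats. Precision is limited by the 4 arrays of each sex. Alternatives changed normalization, source, background correction, filter, outlier spots, prior, blocks, probe choice and left out each rat.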

Additional observations from a re-analysis of the deposited data

Results flagged for a closer look

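Of 34 groups of 4 rats examined for a rat far from the others, 2 held one, and chance gives about 1 in 20. For Cry2, male 4 was at a log2 signal of -4.553, while the other males were at -4.155 to -4.141. For Npas2, female 1 was at -2.564 on the lead probe, while the other females were at -1.889 to -1.758. On the other Npas2 probe, females 1 to 4 were at -4.936, -4.768, -4.389 and -4.967, so female 1 was not apart there.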

How the results depend on the processing

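Of the 10 clock genes, 0 were called in limma at the adjusted p in 18 of 19 alternatives, and leaving out each rat gave 0 to 1, the 1 being Nr1d2 without female 3. With the 2-fold threshold, 0 were called in all 19. No other scaling or filter moved the count, and the median pooled SD was 0.212 to 0.237 under other scalings. Some directions turned. Per1 was at 0.022 under quantile normalization and in the authors' log2 values, and Cry2 at 0.012 in both. Leaving out each rat gave -0.205 to 0.014 for Per1, -0.182 to 0.083 for Cry1, -0.09 to 0.056 for Cry2, -0.24 to 0.053 for Npas2, -0.339 to 0.029 for Ciart and 0.059 to 0.633 for Nr1d1, which kept its sign. Within slide rows, an alternative added after the data had been seen, row 1 gave 0.135 for Per1, 0.097 for Cry1, -0.347 for Nr1d1 and 0.326 for Ciart, and row 2 gave 0.351 for Npas2. In the other row, Nr1d1 was at 0.905, Ciart at -0.604 and Npas2 at -0.452. Of the 17 other loop genes and kinases, 1 was called in each of the 19 alternatives and 0 within each row, where 2 rats per sex remained. Whether the same replicate numbers in both sexes pair the rats is not given in the labels. The correlation of same-numbered deviations was 0.0193 to 0.138, and that of other pairs of rats was -0.222 to 0.117. Some rats correlated best with their own number and some with another, so these values cannot decide it. With the number as a replicate block, 0 clock genes and 1 other loop gene or kinase were called, and the Per2 difference of 0.661 had an adjusted p of 0.0831, Por one of 0.0919 and Noct one of 0.0916. The cause of these changes was not tested. Ciart was well above background on 7 of 8 arrays.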

Other observations

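The genes named here, from the output list, were chosen after their values were seen. Sgk1, the serum- and glucocorticoid-induced kinase that activates sodium channels, was at a log2 signal of -0.03, 1.71, 0.13 and 1.32 in females 1 to 4 and of 1.35, 1.32, 1.62 and 1.56 in males 1 to 4. Females 1 and 3 were below all other rats, female 2 was above all males, and female 4 was within the range of the males. The pooled SD of Sgk1 was 0.621, at the 96.5th percentile of all probes tested, and its difference was 0.68 (SE 0.377, limma adjusted p of 0.299). Gys2, the liver-type glycogen synthase, had a pooled SD of 0.611, at the 96.4th percentile, and a difference of -0.85 (SE 0.371, limma adjusted p of 0.194).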
